A study of Homo sapiens with 8 samples.

Results

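Genes of ribosome biogenesis and of the nucleolus were followed in SJRH30 cells, an established human line from an alveolar rhabdomyosarcoma, through 24 h in 1% oxygen. The set was a list of 45 gene symbols, and a probe set was taken where its annotated symbol was exactly one of them. This found 56 probe sets for 36 of the 45 genes, among 22277 probe sets and 11963 genes on the array. BOP1, DDX18, DKC1, EBNA1BP2, GNL3, LYAR, NOB1, NOP56 and NOP58 were not analysed here. The series holds 8 arrays, 2 for each of 4 times: cells taken before hypoxia (0 h) and cells kept for 6, 12 and 24 h in a chamber at 1% oxygen. All cells came from the same line in the same medium, and the labels call the 2 replicates of a time biological without saying how they were separated, so p-values measure the spread between these arrays. The labels give the cell type as muscle fibroblasts. No cells kept in normal oxygen for the same hours were analysed here, so time in hypoxia and time in culture cannot be told apart.

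Ribosomes are assembled mainly in the nucleolus, where RNA polymerase I transcribes a precursor that is cut and modified into 18S, 5.8S and 28S ribosomal RNA. Small nucleolar ribonucleoproteins (snoRNPs) guide its methylation and pseudouridylation, and a large group of assembly factors, among them helicases, GTPases and methyltransferases, builds the small and large subunits before export. The process consumes much of a growing cell's energy, and many of its genes, like those of polyamine synthesis, are known targets of MYC proteins, which bind the E-box CACGTG.

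Because this E-box is the sequence element best known to be shared by such genes, RefSeq promoter windows of assembly GRCh38.p14, from 250 bases before to 50 bases after each annotated start, were searched for CACGTG, which reads the same on both strands. Windows were matched for 31 of the 36 measured members and not for RRS1, TCOF1, RRP1B, RRP12 and NOLC1. At least 1 E-box lay in the windows of 16 of the 31 members (51.6%) and of 1144 of 9563 genes tested that had a window (12.0%). These shares count a gene once over all its windows. Counted by window instead, 2548 of all 35116 promoters in the promoter table held an E-box (7.26%). The E-boxes of the members that the results turn on are shown with 12 bases on either side, 5′ to 3′ in the direction of the gene, with the E-box in capitals.
ODC1, chr2:10447990-10448019, minus strand, 6 bases after the start: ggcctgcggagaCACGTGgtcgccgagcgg
ODC1, chr2:10448024-10448053, minus strand, 29 bases before the start: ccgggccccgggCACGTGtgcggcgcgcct
SRM, chr1:11060200-11060229, minus strand, 199 bases before the start: ccggccgggcccCACGTGgcccctggagcg
MRTO4, chr1:19251807-19251836, plus strand, 15 bases after the start: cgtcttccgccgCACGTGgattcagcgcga
UTP20, chr12:101280083-101280112, plus strand, 10 bases before the start: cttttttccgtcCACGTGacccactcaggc
PNO1, chr2:68157885-68157914, plus strand, 10 bases after the start: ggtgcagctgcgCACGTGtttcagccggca
DDX21, chr10:68956604-68956633, plus strand, 31 bases before the start: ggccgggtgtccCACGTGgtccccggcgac
FBL, chr19:39846356-39846385, minus strand, 7 bases after the start: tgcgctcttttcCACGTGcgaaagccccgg
These 7 genes include 6 that fell during hypoxia and FBL, which rose. The other E-boxes were in BYSL, GAR1, NOP2 and RRP9, which fell, and in NAT10, NOP14, PES1, RCL1 and WDR43, which were not called. EMG1 and NIP7, with the largest falls at 6 and 12 h, had no CACGTG in this window. At 24 h the change of NIP7 was -0.31, a smaller fall than in the 6 genes above that fell.

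Many of these E-boxes lay just downstream of the start. In the first 50 transcribed bases an E-box was found in 11 of 31 members (35.5%), against 144 of 9563 genes tested (1.51%). In the 250 bases before the start the shares were 5 of 31 (16.1%) and 1020 of 9563 (10.7%), leaving out E-boxes that span the start, such as that of RRP9. An E-box was present in 10 of the 18 members with a window that were called lower at 12 h and in 6 of the 13 that were not. Before the start these counts were 4 of 18 and 1 of 13, and after it 6 of 18 and 5 of 13. Whether the 2 groups differ was not tested. Among 82 other pre-ribosomal RNA processing factors with a window, 24 (29.3%) held an E-box, and among 63 cytosolic ribosomal protein genes 4 did (6.35%). These 63 came from all 79 ribosomal protein genes listed, measured here or not, while the members and processing factors counted were all measured. The letters CCGGAAG, searched on both strands as a site of ETS family factors, were in 13 of 31 members (41.9%), in 22 of 63 ribosomal protein genes (34.9%) and in 1705 of 9563 genes tested (17.8%). Other letters searched on both strands were ACGTG, the core of hypoxia-inducible factor sites, which every E-box here also contains (19 of 31 members, 61.3%, and 2915 of 9563 genes, 30.5%), GGGGCGGGG for Sp factors (5 of 31 and 2855 of 9563), the palindrome bound by NRF1 (1 of 31 and 212 of 9563) and the M4 promoter motif, which was in no member and in 46 of 9563 genes. These matches describe the letters in the windows and say nothing of binding.

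Values are log2 probe set summaries that the authors made with RMA, which in its usual form equalises the distribution of values between arrays. A change is therefore relative to the rest of an array's transcripts, and in such bulk samples fewer cells of a kind and less RNA per cell cannot be told apart. They ran from 2.72 to 14.5, and the number of arrays limits their precision. The median absolute difference between replicate arrays was 0.06, 0.07, 0.08 and 0.10 at 0, 6, 12 and 24 h. BNIP3, a mitophagy receptor known to be induced by hypoxia, rose by 2.96 at 6 h, which checks the 6 h label against 0 h and not the order of the hypoxic times. Muscle and rhabdomyosarcoma markers had a median level of 10.1 over 17 genes, led by the cardiac actin gene ACTC1 at 13.7, while 10 fibroblast markers had a median of 6.31, with COL3A1 at 10.9. The highest level was 5.97 over 6 leukocyte markers, 6.79 over 7 epithelium markers and 8.03 over 6 endothelium markers, the last in TEK. Of the 17 muscle and rhabdomyosarcoma markers, 1, 5 and 5 were called higher and 0, 0 and 3 lower at 6, 12 and 24 h. Of all genes, 2.32%, 7.13% and 8.59% were called higher and 1.22%, 11.3% and 9.15% lower. None of the fibroblast markers was called lower against 0 h at any time, 1 or 2 were called higher at each time, and the part of these genes in the results below was not tested. Spiked-in poly(A) control RNAs, 24 probe sets, read 0.47, 0.43 and 0.65 higher at 6, 12 and 24 h than at 0 h, and 18 hybridisation control probe sets 0.25, 0.19 and 0.19 higher. The 3′ minus 5′ difference, a sign of RNA quality, averaged -0.10, -0.10, -0.05 and -0.05 for GAPDH at 0, 6, 12 and 24 h. For ACTB it averaged 0.02, 0.07, 0.10 and 0.11. For both genes all 12 and 24 h arrays lay above both 0 h arrays. The part of these controls in the results was not tested.

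Messenger RNAs of many ribosome biogenesis genes fell during hypoxia, with a few of them called lower at 6 h and more at 12 h. A member was called where the limma fit to all 8 arrays gave a Benjamini-Hochberg adjusted p under 0.05 over all 11963 genes. At 6 h, 4 of 36 members were called lower and 0 higher (0 higher at an unadjusted p under 0.05 too, where 9.12% of all genes were), where 1.22% of all genes were called lower and 2.32% higher. At 12 h, 20 of 36 were called lower and 0 higher (2 at an unadjusted p under 0.05, where 14% of all genes were), against 11.3% and 7.13% of all genes. At 24 h, 19 of 36 were called lower and 1 higher, against 9.15% and 8.59% of all genes. Called or not, 27, 30 and 29 of 36 members lay below 0 at 6, 12 and 24 h, beside 6706, 5923 and 6424 of 11963 genes. The median change of the members was -0.11, -0.25 and -0.26 at 6, 12 and 24 h, beside medians over all genes of -0.02, 0.00 and -0.01. All 3 comparisons share the 0 h arrays, and every count leaned on them. Without 0 h replicate 1, 11 members were called lower at 12 h and 8 at 24 h, against 3.26% and 2.8% of all genes. Without 0 h replicate 2 these were 10 and 7, against 2.81% and 2.48%. The 6 h count was 0 where any single 0 h or 6 h array was left out, 8 without either 24 h array (1.6% of all genes), and 15 when the prior variance was let follow the intensity (4.48%).

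The same 19 members were lower at both 12 and 24 h. EMG1, NIP7, UTP20 and PNO1 were also lower at 6 h, and DDX10, an RNA helicase of the small subunit pathway, was called at 12 h alone (-0.26 ± 0.07 SE, adjusted p = 0.0412; -0.24 with adjusted p = 0.0510 at 24 h). FBL was the only member called higher at any time. The other 15 members were not called at any time, which does not show that they were unchanged. The plot of changes by role places each member beside the others of its step.

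**Figure D1:**
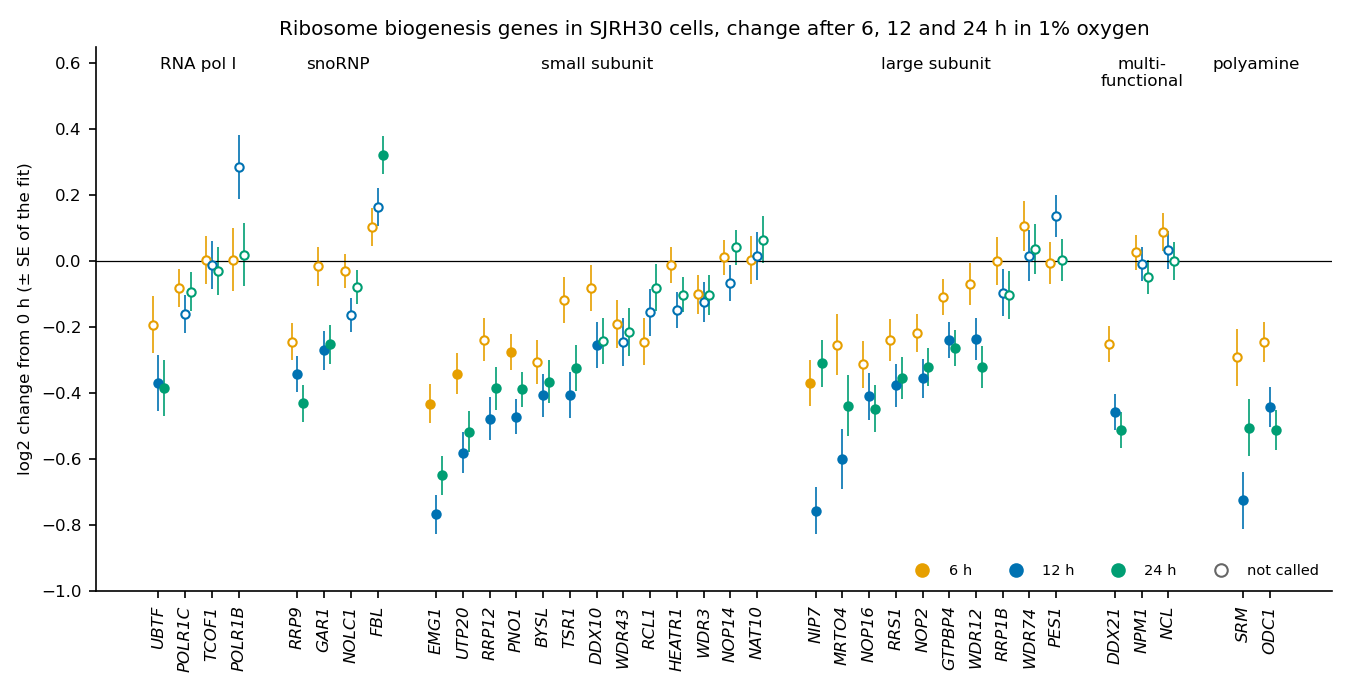
Change in log2 expression from 0 h (vertical axis, ± SE of the limma fit) for each of the 36 measured members (horizontal axis), grouped by role, at 6, 12 and 24 h; filled circles are called at an adjusted p under 0.05. Most factors of small and large subunit assembly lie below 0, with EMG1 at -0.77 and NIP7 at -0.76 at 12 h, while NPM1, NCL and TCOF1 stay near 0 and FBL lies above it at 0.32 at 24 h.

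Of the 4 members of RNA polymerase I transcription, only UBTF was called, lower at 12 and 24 h. UBTF encodes the upstream binding factor, which occupies the ribosomal DNA repeats. It read 7.40 and 7.37 at 0 h, 7.20 and 7.18 at 6 h, 6.99 and 7.04 at 12 h, and 6.87 and 7.13 at 24 h. All 6 hypoxic arrays lay below both 0 h arrays, with the 24 h replicates further apart than those of other times. The fall was 0.37 ± 0.09 at 12 h (SE; limma adjusted p = 0.0235) and 0.38 ± 0.09 at 24 h (adjusted p = 0.0204), and it was called in 10 of 14 alternative settings at 12 h and in 12 of 14 at 24 h. POLR1B, the second largest subunit of the polymerase, read 6.58 and 6.49 at 0 h, 6.54 and 6.54 at 6 h, 6.69 and 6.95 at 12 h, and 6.48 and 6.63 at 24 h. Its 12 h arrays were the highest, at a mean 0.29 ± 0.10 above 0 h, and did not pass the test (adjusted p = 0.0779). POLR1C, a subunit shared with RNA polymerase III, was at -0.08, -0.16 and -0.09 at 6, 12 and 24 h, and TCOF1, the nucleolar protein treacle, at 0.00, -0.01 and -0.03, and neither was called.

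The snoRNP proteins went in different directions. Of 4 measured, RRP9 and GAR1 were called lower at 12 and 24 h, FBL was called higher at 24 h, and NOLC1 was not called. RRP9 is the U3-specific protein needed for the early cuts of the precursor, and fell by 0.34 ± 0.06 at 12 h and by 0.43 ± 0.06 at 24 h (SE; adjusted p = 0.00649 and 0.00227). GAR1, a core protein of the H/ACA class that guides pseudouridylation, was at -0.02 at 6 h and fell by 0.27 and 0.25 at 12 and 24 h (adjusted p = 0.0192 and 0.0243).

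FBL, the methyltransferase of the box C/D class, read 12.57 and 12.55 at 0 h, 12.68 and 12.65 at 6 h, 12.75 and 12.70 at 12 h, and 12.83 and 12.93 at 24 h. Every hypoxic array lay above both 0 h arrays, and the 24 h arrays were the highest. The differences from 0 h were 0.10, 0.16 and 0.32 at 6, 12 and 24 h (SE 0.06 for each), and only the last was called (limma adjusted p = 0.00864). It was not called without either 0 h array. FBL was the exception among the called members, and its promoter window carries the E-box shown above.

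The small subunit factors held 7 of 13 members lower at 12 h and 6 at 24 h, with 3 already lower at 6 h and none higher. Their median change was -0.19, -0.26 and -0.24 at 6, 12 and 24 h. EMG1, which methylates a base of 18S ribosomal RNA and is needed for small subunit assembly, had the largest fall of all members at each of the 3 times. It read 10.75 and 10.74 at 0 h, 10.30 and 10.33 at 6 h, 9.98 and 9.97 at 12 h, and 10.04 and 10.15 at 24 h. The 4 pairs did not overlap, and the 12 h pair was the lowest. The changes were -0.43, -0.77 and -0.65 (SE 0.06 for each; limma adjusted p = 0.00852, 0.000269 and 0.00045), which is 1.70-fold lower at 12 h. It was called in all 15 alternative settings at 12 and at 24 h and in 11 of 15 at 6 h.

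UTP20, a large scaffold protein of the early small subunit precursor, read 9.21 and 9.09 at 0 h, 8.83 and 8.79 at 6 h, 8.55 and 8.59 at 12 h, and 8.64 and 8.63 at 24 h. The hypoxic arrays lay below both 0 h arrays and the 6 h pair lay between 0 h and the later times. The changes were -0.34 ± 0.06, -0.58 ± 0.06 and -0.52 ± 0.06 (SE; limma adjusted p = 0.0279, 0.00121 and 0.00155). PNO1, the partner of the endonuclease NOB1 in late small subunit maturation, read 10.85 and 10.85 at 0 h, 10.59 and 10.56 at 6 h, 10.39 and 10.36 at 12 h, and 10.49 and 10.43 at 24 h. These 4 pairs did not overlap either, and the lowest was again at 12 h. The changes were -0.27, -0.47 and -0.39 (SE 0.05 for each; adjusted p = 0.0380, 0.00173 and 0.00311).

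RRP12, an export factor of precursor subunits, read 7.51 and 7.54 at 0 h, 7.22 and 7.36 at 6 h, 7.03 and 7.07 at 12 h, and 7.10 and 7.18 at 24 h. Its hypoxic arrays were all below 0 h, and it fell by 0.48 ± 0.06 at 12 h and by 0.39 ± 0.06 at 24 h (SE; limma adjusted p = 0.00335 and 0.00692). BYSL, the assembly factor bystin, fell by 0.41 and 0.36 at 12 and 24 h, and TSR1, a factor of late small subunit maturation, by 0.41 and 0.32 on the probe set that stands for the gene. Another probe set of TSR1 was called higher at 12 h (0.27, limma adjusted p = 0.0435). The small subunit members that were not called ranged from -0.24 to 0.02 at 12 h. They were WDR43, HEATR1, WDR3 and NOP14 of the early precursor particle, RCL1 of its processing, and NAT10, the acetyltransferase of 18S ribosomal RNA. WDR43 was the closest to a call (-0.24 ± 0.07 at 12 h, adjusted p = 0.0554).

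**Figure D2:**
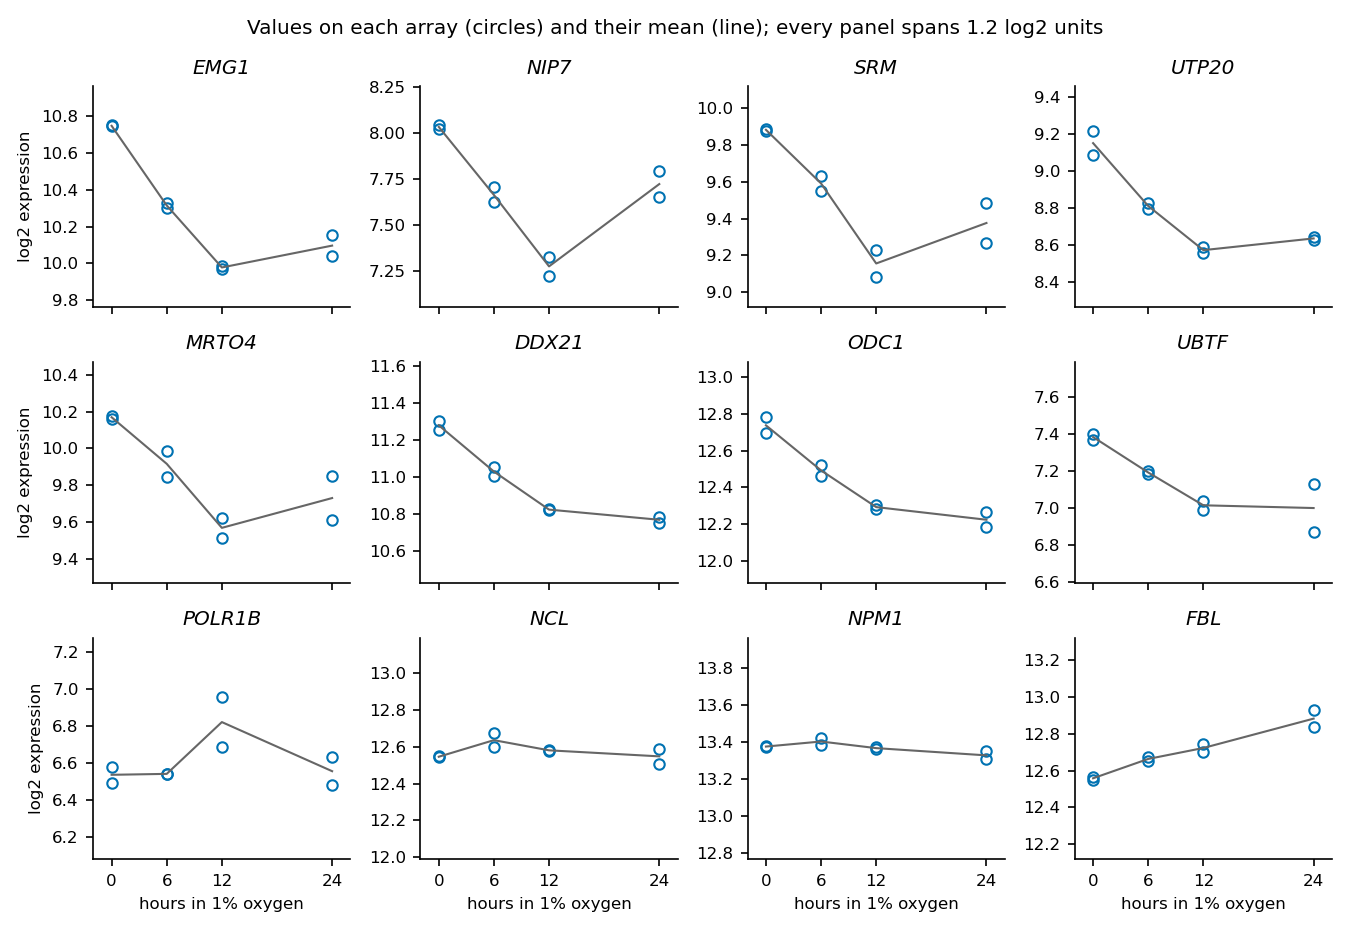
Log2 expression (vertical axis, each panel spanning the same height) against hours in 1% oxygen (horizontal axis) for 12 members; circles are arrays, 2 per time, and lines join their means. EMG1, NIP7, SRM and MRTO4 are lowest at 12 h, DDX21 and ODC1 are lowest at 24 h, NCL and NPM1 run flat, and FBL is highest at 24 h.

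The large subunit factors held 7 of 10 members lower at both 12 and 24 h, 1 lower at 6 h and none higher, with medians of -0.16, -0.30 and -0.32. NIP7, needed for processing of the precursor and for large subunit assembly, read 8.02 and 8.04 at 0 h, 7.70 and 7.62 at 6 h, 7.33 and 7.22 at 12 h, and 7.65 and 7.79 at 24 h. The 12 h pair was the lowest, and the 24 h arrays overlapped those of 6 h. NIP7 changed by -0.37, -0.76 and -0.31 at 6, 12 and 24 h (SE 0.07 for each; limma adjusted p = 0.0344, 0.000696 and 0.0221), and was 1.69-fold lower at 12 h.

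MRTO4, which helps to build the ribosomal stalk, read 10.18 and 10.16 at 0 h, 9.85 and 9.99 at 6 h, 9.62 and 9.51 at 12 h, and 9.61 and 9.85 at 24 h. All hypoxic arrays were below 0 h, and the 24 h replicates lay further apart than those of other times. The fall was 0.60 ± 0.09 at 12 h and 0.44 ± 0.09 at 24 h (SE; limma adjusted p = 0.00518 and 0.0163). NOP16, a nucleolar protein of large subunit assembly, read 10.30 and 10.28 at 0 h, 9.94 and 10.02 at 6 h, 9.90 and 9.87 at 12 h, and 9.76 and 9.93 at 24 h. Its hypoxic arrays all lay below 0 h, and the 24 h arrays lay on either side of those of 12 h. It fell by 0.41 ± 0.07 at 12 h and 0.45 ± 0.07 at 24 h (SE; adjusted p = 0.00817 and 0.00525) on the probe set that stands for the gene, while another was called higher at 12 h (0.36, adjusted p = 0.0269).

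The other 4 called members of the large subunit were RRS1, which helps to bring the 5S particle into the precursor, NOP2, a methyltransferase of 28S ribosomal RNA, GTPBP4, a nucleolar GTPase, and WDR12. Their changes at 12 h were -0.38, -0.36, -0.24 and -0.24, and at 24 h -0.35, -0.32, -0.26 and -0.32. WDR12 forms the PeBoW complex with BOP1 and PES1, and PES1 was not called, at 0.14 ± 0.06 at 12 h and 0.00 ± 0.06 at 24 h (SE; adjusted p = 0.175 and 0.975). RRP1B and WDR74 were not called either, with changes between -0.10 and 0.11 at the 3 times.

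The abundant multifunctional proteins of the nucleolus split. DDX21, an RNA helicase that acts in both polymerase I transcription and processing, read 11.26 and 11.31 at 0 h, 11.05 and 11.01 at 6 h, 10.82 and 10.83 at 12 h, and 10.78 and 10.75 at 24 h. The pairs did not overlap and each later time lay lower. DDX21 fell by 0.46 ± 0.05 at 12 h and 0.51 ± 0.05 at 24 h (SE; limma adjusted p = 0.00191 and 0.000908), and was at -0.25 ± 0.05 at 6 h (adjusted p = 0.0506).

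NCL, or nucleolin, a histone chaperone and RNA-binding protein, read 12.54 and 12.55 at 0 h, 12.67 and 12.60 at 6 h, 12.58 and 12.58 at 12 h, and 12.51 and 12.59 at 24 h. NPM1, or nucleophosmin, the main protein of the granular zone of the nucleolus, read 13.38 and 13.38 at 0 h, 13.42 and 13.38 at 6 h, 13.36 and 13.37 at 12 h, and 13.35 and 13.31 at 24 h. Hypoxic arrays lay on both sides of 0 h for NCL, and for NPM1 all but the 6 h arrays lay slightly below it. The changes at 24 h were 0.00 ± 0.06 for NCL and -0.05 ± 0.05 for NPM1 (SE; limma adjusted p = 0.985 and 0.599), and neither gene was called at any time or in any of 15 alternative settings at 12 h.

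Both members of polyamine synthesis were lower at 12 and 24 h. Polyamines bind RNA and are needed for growth. ODC1, ornithine decarboxylase, which catalyses the step that commits ornithine to the pathway, read 12.69 and 12.78 at 0 h, 12.46 and 12.52 at 6 h, 12.28 and 12.30 at 12 h, and 12.18 and 12.27 at 24 h. All hypoxic arrays were below 0 h, and the 12 and 24 h arrays were below those of 6 h. The changes were -0.24 ± 0.06, -0.44 ± 0.06 and -0.51 ± 0.06 (SE; limma adjusted p = 0.0759, 0.00346 and 0.00155).

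SRM, spermidine synthase, read 9.89 and 9.88 at 0 h, 9.55 and 9.63 at 6 h, 9.09 and 9.23 at 12 h, and 9.26 and 9.49 at 24 h. Its 12 h arrays lay lowest, and the second 24 h array was close to the 6 h arrays. It fell by 0.72 ± 0.09 at 12 h (SE; limma adjusted p = 0.00202), or 1.65-fold, and by 0.51 ± 0.09 at 24 h (adjusted p = 0.00736). Of 11 other measured genes of polyamine metabolism, 2 were lower and 1 higher at 12 h. These are 18.2% and 9.09% of that list, beside 11.3% and 7.13% of all genes. The lower were SAT1, which acetylates polyamines for export and breakdown (-0.44), and AZIN1, which protects ornithine decarboxylase from its antizyme (-0.40). PAOX, a polyamine oxidase, was higher (0.44). SAT1 and AZIN1 were also called lower at 24 h (-0.28 and -0.38).

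No member was called between hypoxic times at an adjusted p under 0.05, where limma called 0.0585% of all genes lower and 0.142% higher at 12 h against 6 h, 0.0585% and 0.184% at 24 h against 12 h, and 0.936% and 1.85% at 24 h against 6 h. The counts that follow are at an unadjusted p under 0.05, with the share of all genes at that same threshold. Setting 12 h against 6 h, 31 of 36 members lay below 0, and 17 passed as lower and 1 as higher, against 11.6% and 10.4% of all genes. EMG1 had the smallest adjusted p, at -0.34 and 0.0638. Setting 24 h against 12 h, 23 of 36 members lay above 0, and 3 passed as higher and 1 as lower, against 9.8% and 7.58% of all genes. NIP7 came closest there, at 0.45 and adjusted p = 0.0599. Setting 24 h against 6 h, 29 members lay below 0, and 10 passed as lower and 1 as higher, against 9.36% and 9.67% of all genes, with DDX21 closest at -0.26 and adjusted p = 0.0501. Some members were called at the adjusted threshold in other fits. With a prior variance that follows the intensity, 11 members were called either way between 12 and 6 h (6.3% of all genes in that fit), 8 between 24 and 6 h (8.69%) and 2 between 24 and 12 h (3.38%). Without 12 h replicate 1 these were 2 (4.36%), 0 (3%) and 1 (1.16%). The moderated F-test over the comparisons with 0 h called 20 of 36 members and 16.2% of all genes. It called 5 members and 3.32% of all genes without 0 h replicate 1, and 4 members and 3.13% without 0 h replicate 2.

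Several probe sets were present for 13 of the 36 members, and these did not always move together. In a fit of all 22277 probe sets, 3 of the 56 member probe sets were called lower at 6 h, 26 at 12 h and 24 at 24 h, against 0.911%, 9.91% and 7.85% of all probe sets. The numbers called higher were 0, 2 and 1 (0 at 6 h where 2.02% of all probe sets were, 6.50% at 12 h and 7.04% at 24 h). For NOP16, 2 probe sets were lower at 12 h (-0.41 and -0.63), 1 was higher (0.36, limma adjusted p = 0.0269) and the other was not called (0.11). For TSR1, 2 were lower (-0.41 and -0.34) and 1 higher (0.27, adjusted p = 0.0435). The direction of these 2 genes thus depends on the probe set, and it follows here the one with the highest mean signal.

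Other members had called probe sets besides the one that stands for them. NOLC1, a chaperone of snoRNPs, was not called on its brightest probe set (-0.16 at 12 h), while its other probe sets were lower at 12 h (-0.43 and -0.51) and at 24 h (-0.42 and -0.48). HEATR1 likewise had a second probe set that was lower at both times (-0.34 and -0.40). The 2 probe sets of UBTF were both lower, the dimmer one at -0.61 at 12 h and -0.56 at 24 h. None of the 3 probe sets of NPM1 was called.

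**Figure D3:**
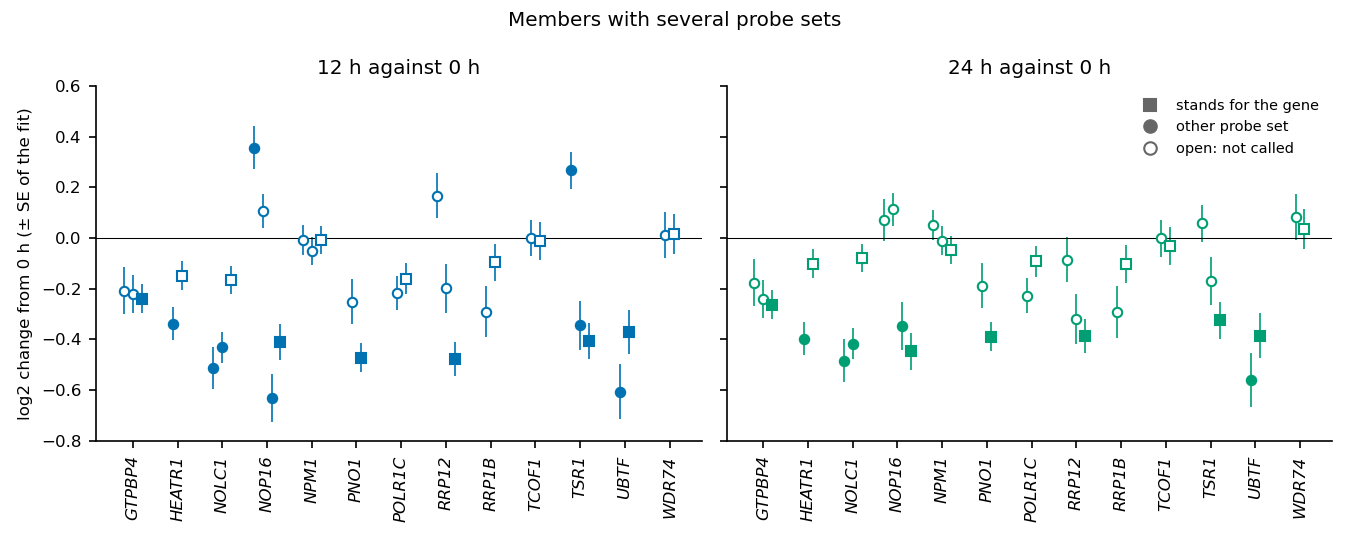
Change in log2 expression from 0 h (vertical axis, ± SE of the fit of all probe sets) for every probe set of the 13 members with several, at 12 h (left) and 24 h (right); squares stand for the gene, circles are its other probe sets and filled symbols are called at an adjusted p under 0.05. NOP16 and TSR1 have called probe sets on both sides of 0 at 12 h, and NOLC1 and HEATR1 are called only on probe sets other than the one that stands for the gene.

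The array also carries control probe sets for ribosomal RNA. Ribosomal RNA has no poly(A) tail, and amplification kits of the type named in the labels prime from oligo(dT), so these signals are not a designed measure of its amount. The 28S probe set named for the 5′ part read 12.22 and 12.17 at 0 h, 11.56 and 11.63 at 6 h, 11.22 and 11.28 at 12 h, and 11.13 and 11.24 at 24 h. All hypoxic arrays lay below 0 h and the later times below 6 h. The changes were -0.60, -0.95 and -1.01 at 6, 12 and 24 h (SE 0.07 for each; limma adjusted p = 0.00495, 0.000245 and 0.000141 over all 22277 probe sets). The 6 h call was lost without either 0 h array or 6 h replicate 1 (adjusted p of at most 0.0706).

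The other 5 ribosomal RNA probe sets did not show a fall of this size. The middle 28S probe set read 11.24 and 11.27 at 0 h, 11.16 and 11.14 at 6 h, 11.11 and 11.08 at 12 h, and 11.05 and 11.06 at 24 h. Its pairs fell in order without overlap, and the change of -0.20 ± 0.05 (SE) was called at 24 h (limma adjusted p = 0.0448) and not at 6 or 12 h. The 3′ probe set of 28S was dim, from 4.97 to 5.29, and was not called. The 3 probe sets of 18S, which together changed by between -0.09 and 0.05, were not called at any time. The 28S 5′ probe set and the members EMG1, NIP7, UTP20 and PNO1 were each called lower at 6, 12 and 24 h than at 0 h. These comparisons share the same 0 h arrays. The 4 members had their lowest mean at 12 h and the 28S 5′ probe set at 24 h. Whether these signals are related was not tested.

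**Figure D4:**
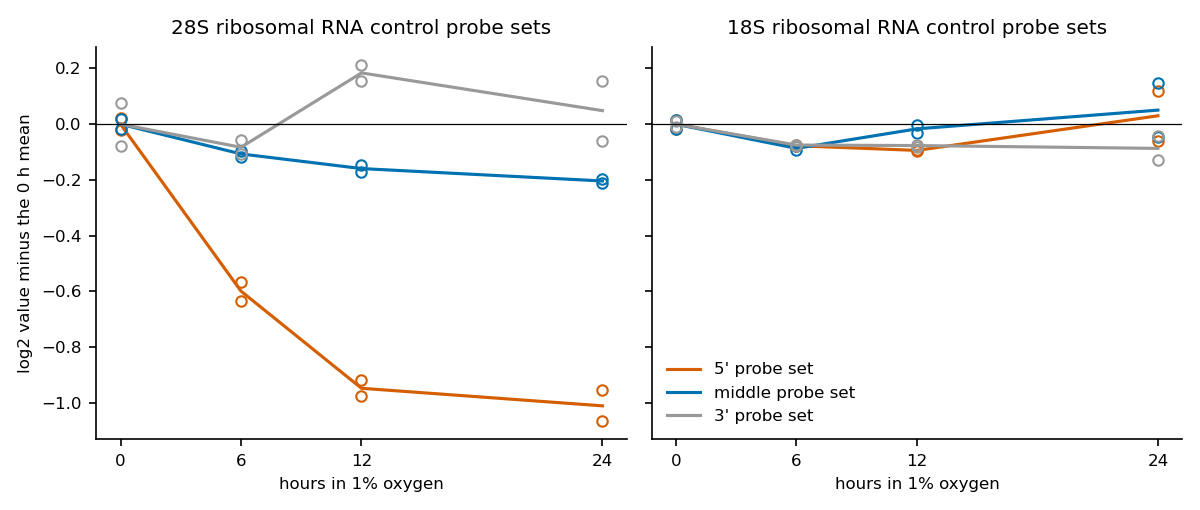
Log2 value minus the mean of the 0 h arrays (vertical axis) against hours in 1% oxygen (horizontal axis) for the 28S (left) and 18S (right) ribosomal RNA control probe sets; circles are arrays, 2 per time, and lines join their means. The 5′ probe set of 28S falls by 1.01 at 24 h, the middle one by 0.20, and the 18S probe sets stay within 0.2 of 0 h.

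Genes of neighbouring steps were set beside the members. Their lists, like the members, were written with earlier results of these data known. Ribosomal protein genes of the cytosolic ribosome, the products that the assembly factors put together, were not called lower: limma called 0 of 52 lower at any time (0 at an unadjusted p under 0.05 too), and 1, 2 and 3 higher at 6, 12 and 24 h. Those called higher were 1.92%, 3.85% and 5.77% of the ribosomal protein genes, beside 2.32%, 7.13% and 8.59% of all genes. Of all genes, 1.22%, 11.3% and 9.15% were called lower. The median change of the ribosomal protein genes was 0.02, 0.00 and 0.03. RPL27A was higher at all 3 times (0.40, 0.42 and 0.47), RPLP2 at 12 and 24 h (0.29 and 0.42), and RPL3 at 24 h (0.18).

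Other factors of pre-ribosomal RNA processing and assembly went the way of the members. Of 92 measured, 5 were lower and 1 higher at 6 h, 30 lower and 3 higher at 12 h, and 25 lower and 3 higher at 24 h. Their medians were -0.07, -0.18 and -0.14. The lower were 5.43%, 32.6% and 27.2% of the list, beside 1.22%, 11.3% and 9.15% of all genes. The higher were 1.09%, 3.26% and 3.26%, beside 2.32%, 7.13% and 8.59%. The largest falls at 12 h were in NGDN (-0.47), NOL6 (-0.45), EIF6, which keeps the large subunit from joining the small one too early (-0.45), and ZNHIT6, a snoRNP assembly factor (-0.43). IMP3, a U3 snoRNP protein, was higher at 6, 12 and 24 h (0.36, 0.38 and 0.40), as were RIOK3 (0.35) and PIH1D1 (0.33) at 12 h.

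The other machinery of RNA polymerase I was mixed. Of 16 genes measured, 4 were lower and 2 higher at 12 h, 2 lower and 2 higher at 24 h, and none was called at 6 h. At 12 h these were 25% and 12.5% of the list, beside 11.3% and 7.13% of all genes. At 24 h they were 12.5% each way, beside 9.15% and 8.59%. At 6 h, 1.22% of all genes were lower and 2.32% higher. RRN3, which brings the polymerase to the promoter, fell by 0.33 and 0.34 at 12 and 24 h. TAF1A, of the promoter selectivity factor, fell by 0.39 at 12 h. POLR2H, a subunit common to the nuclear polymerases, rose by 0.53 and 0.65 at 12 and 24 h, and POLR2K, another common subunit, fell by 0.32 and 0.22. RNA polymerase III, which makes 5S ribosomal RNA and transfer RNAs, had 1, 7 and 5 of 14 genes lower at 6, 12 and 24 h and none higher. The lower were 7.14%, 50% and 35.7% of the list, beside 1.22%, 11.3% and 9.15% of all genes. Of all genes, 2.32%, 7.13% and 8.59% were called higher. POLR3C was lower at all 3 times (-0.38, -0.62 and -0.52), and POLR3F (-0.42), POLR3E (-0.41) and POLR3K (-0.40) were lower at 12 h.

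**Figure D5:**
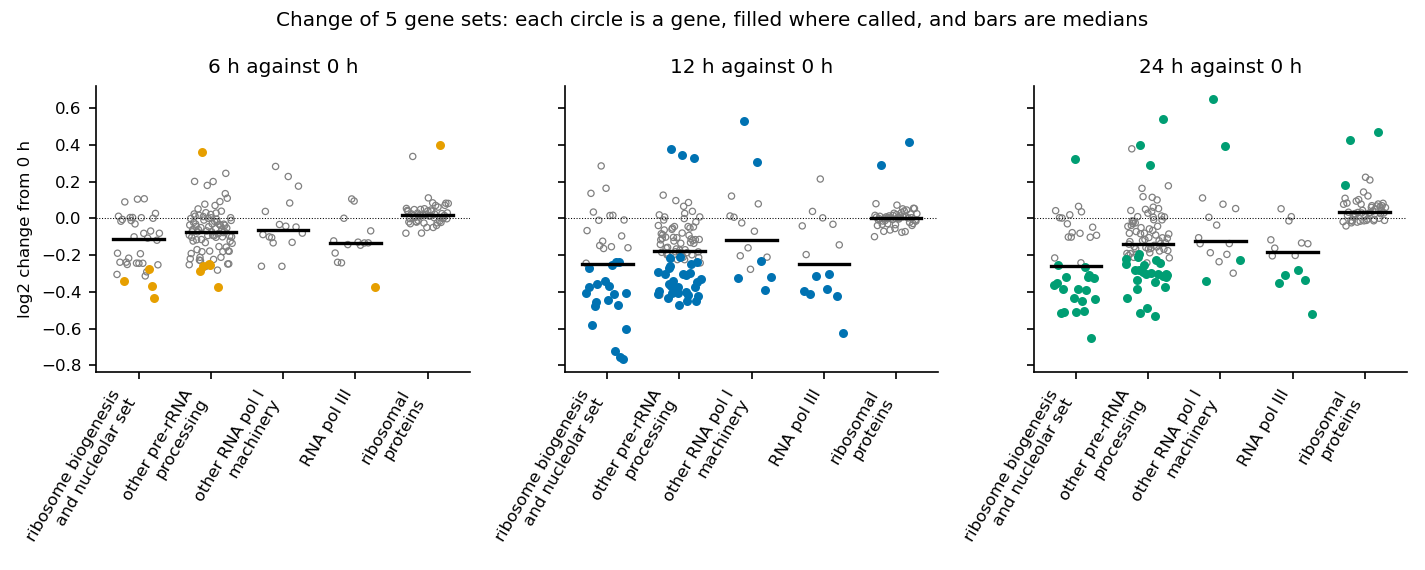
Change in log2 expression from 0 h (vertical axis) for the 36 members, 92 other pre-ribosomal RNA processing factors, 16 other RNA polymerase I genes, 14 RNA polymerase III genes and 52 ribosomal protein genes (horizontal axis), at 6, 12 and 24 h; each circle is a gene, filled where called at an adjusted p under 0.05, and bars are medians. At 12 h the medians are -0.25, -0.18, -0.11, -0.25 and 0.00, with no ribosomal protein gene called lower.

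In the network of MYC, 2 of 11 genes measured were lower and 4 higher at 12 h. These were 18.2% and 36.4% of the list, beside 11.3% and 7.13% of all genes. At 6 h, 1 was lower and 2 higher (9.09% and 18.2%), beside 1.22% and 2.32% of all genes. At 24 h, 0 were lower and 3 higher (0% and 27.3%), beside 9.15% and 8.59% of all genes. MYC itself read 10.12 and 10.14 at 0 h, 9.80 and 9.85 at 6 h, 9.68 and 9.78 at 12 h, and 9.97 and 9.98 at 24 h. All hypoxic arrays were below 0 h, and the 24 h pair was above those of 6 and 12 h. It fell by 0.31 ± 0.06 at 6 h and 0.40 ± 0.06 at 12 h (SE; limma adjusted p = 0.0334 and 0.00434) and was at -0.16 ± 0.06 at 24 h (adjusted p = 0.104). MYCN, the paralogue known to be active in alveolar rhabdomyosarcoma, went the other way, at 0.24 ± 0.06 at 6 h (adjusted p = 0.0974), 0.26 ± 0.06 at 12 h and 0.32 ± 0.06 at 24 h (SE; adjusted p = 0.0290 and 0.0135). MXI1 and MNT, which encode repressors that share the partner MAX and the E-box with MYC, were higher at all 3 times. MXI1 rose by 1.33, 1.55 and 1.59 and MNT by 0.37, 0.50 and 0.34 at 6, 12 and 24 h.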

How the data were processed

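RNA from SJRH30 cells at 4 times, 2 arrays each, was amplified in 1 round with biotin labelling and measured on an Affymetrix array, per the labels' protocols. The authors deposited log2 values per probe set, computed by RMA according to the submitters' processing notes; the version of RMA is not given in the sources used. Gene symbols came from a 2016 annotation of the platform: 19070 probe sets had 1, 1043 several and 2164 none, and 62 were controls. Each gene took its values from the brightest probe set (by mean over arrays) that named it alone. The 7 probe sets that list a member with another gene were not used.

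The 4 times were fitted as group means to the 8 arrays together (lmFit and eBayes of limma 3.58.1, R 4.3.3), with 4 residual degrees of freedom and 3.68 added by the prior. Tests were two-sided, adjusted by Benjamini-Hochberg over all genes, or over all probe sets for the ribosomal RNA controls and probe set comparisons. Dim probe sets were kept. The procedure was run on simulated data with known changes, drawn from the variance model of the fit with independent arrays. Such data cannot check the calls where the real arrays depart from that model. Groups were taken from the labels; same-numbered replicates were not treated as pairs, since the labels give no pairing and their deviations correlated at between -0.11 and 0.09.

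Array values were printed for the 6 called members with the largest fall and up to 4 with the largest rise in each comparison with 0 h, and for 10 fixed members, of which DKC1 was not analysed here. Outside the set, up to 4 called genes of a list with the largest change at 12 h were named, with MYC, MYCN and BNIP3. The members and lists were chosen with earlier results of these data known. Alternatives covered normalization, the variance model, filters, probe sets, the arrays fitted and each array left out.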

Additional observations from a re-analysis of the deposited data

Results flagged for a closer look

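The 28S 5′ control probe set differed between hypoxic times. It was lower at 24 h than at 6 h by a log2 change of -0.41 (limma adjusted p = 0.0328 over all probe sets), with both 24 h arrays below both 6 h arrays. No member was called in the same comparison in the main fit, which was over genes.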

How the results depend on the processing

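With 2 arrays a time, counts of called members depended on the setting. At 6 h, 4 members were called lower. An intensity trend in the variance gave 15 (4.48% of all genes). Leaving out the dimmest 25% of genes gave 10, leaving out the dimmer 50% 14, and the replicate number as a block 1. A threshold of 0.01 on the adjusted p gave 1, where 29 of 11963 genes were lower. Shares of all genes are not given for the filters, the block, repeated quantile normalization, some arrays left out or the F-test at 0.01. Those counts show only how calls depend on the setting. The block left 20 called lower at 12 h and 19 at 24 h, and the F-test at 17. Leaving out 1 array at a time gave 0 to 8 at 6 h, 10 to 21 at 12 h, 7 to 19 at 24 h and 4 to 22 by the F-test, and 0 to 1 called higher at 12 h and at 24 h. A threshold of 0.01 gave 12 lower at 24 h, where 364 of 11963 genes were, and 8 by the F-test. The higher count at 12 h became 1 with repeated quantile normalization, the trend and both filters. The median change at 12 h was -0.22 with repeated quantile normalization and with arrays centred, and at 24 h -0.23 over all probe sets; leaving out arrays gave -0.14 to -0.10, -0.27 to -0.25 and -0.26 to -0.25 at 6, 12 and 24 h. The 28S 5′ change ran from -0.63 to -0.57, -0.98 to -0.92 and -1.07 to -0.96. The cause of these differences was not tested. For single members, 1461 alternative values kept their side of the threshold, 88 lost a call, 62 gained one and 0 reversed; none of these swapped the probe set that stands for a gene, which turned the 12 h direction of NOP16 and TSR1. Between hypoxic times, where 0 were called, the alternatives were chosen after seeing the data. Setting 12 against 6 h, 24 against 12 h and 24 against 6 h, the trend called 11, 2 and 8, leaving out the dimmest 25% 3, 1 and 4, leaving out the dimmer 50% 10, 1 and 10, and leaving out 1 array 0 to 2, 0 to 1 and 0 to 0. For the filters, shares of all genes between hypoxic times are not given here either. Signal over background is not known from the deposited values.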
